A study of Mus musculus with 2 samples.

Results

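The genes described here were the 6 that encode the chains of the cartilage collagens II, IX and XI, namely Col2a1, Col9a1, Col9a2, Col9a3, Col11a1 and Col11a2, out of 21849 features counted. They were chosen by name, for the proteins they encode, with earlier results of these data known. Each was found once among the features. Their transcripts were counted in single cells of mouse costal-cartilage-derived stem cells (CDSCs), in 1 library of primary cells and 1 library of cells cultured to passages 2 to 3. Per the study's methods, the cells came from rib cartilage of newborn C57BL/6J mice, either CD45.1 or carrying the reporter ZsGreen, by collagenase digestion, with a sort for cells that lack CD45, a blood cell protein, and carry CD51, an integrin. Cultured CDSCs had grown in minimum essential medium with fetal bovine serum. How many animals were pooled was not stated, and which genotype each library came from was not stated either.

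Fibrils of hyaline cartilage are built from type II collagen, a homotrimer of the Col2a1 chain, and from type XI collagen, which joins the Col11a1 and Col11a2 chains to a chain that is also a product of Col2a1 and is known to limit fibril width. Type IX collagen, a heterotrimer of the Col9a1, Col9a2 and Col9a3 chains, is not itself fibril-forming and sits on the fibril surface, where it links fibrils to other matrix. In chondrocytes the transcription factor SOX9, with SOX5 and SOX6, is known to drive these genes, whereas the Col11a1 chain is also made outside cartilage, where it can assemble with type V collagen chains.

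Both libraries carry the tissue label bone marrow, so markers were checked first. In the primary library 9 of 9 chondrocyte markers (Acan, Sox9, Hapln1, Matn1, Matn3, Comp, Chad, Snorc and Cnmd) were at 17.8 to 3499 CPM, that is, counts scaled to a common total for each library, while 8 haematopoietic markers together reached 7.31 CPM. In the cultured library the same chondrocyte markers ran from 0.00606 to 81.2 CPM, and 7 of them were under 10 CPM, so the cultured cells were not called chondrocytes here. The haematopoietic markers summed to 24.7 CPM there. The summed markers of other types, primary then cultured, were at 3239 and 1221 CPM for 8 fibroblast genes, 289 and 1277 CPM for 8 smooth muscle and pericyte genes, 309 and 28.0 CPM for 6 skeletal muscle genes, and under 17 CPM in both for endothelial, mast and Schwann cell genes. Single genes made up most of some sums. Acta2 alone was at 1227 CPM in the cultured library, and Tnnt3, a skeletal muscle marker, at 291 CPM in the primary one. The fibroblast genes went both ways, Col1a1 from 149 to 705 CPM and Dcn from 1375 to 65.5 CPM. Itgav, the gene for CD51, was at 92.5 and 109 CPM, and Ptprc, the gene for CD45, at 0.620 and 0.345 CPM. ZsGreen had 60957 primary and 0 cultured counts, so the animals behind the libraries may differ in genotype as well as in culture, and the effects of these cannot be told apart.

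The primary library held 11746 cells with 137148874 unique molecular identifiers (UMIs, each marking 1 captured transcript), and the cultured library 5338 cells with 330129909 UMIs. The median primary cell had 10026.5 UMIs and the median cultured cell 56864.5. A count of 3, taken as the floor, was 0.0219 CPM and 0.00909 CPM. UMIs mark 1 end of a transcript and levels were therefore not divided by gene length, although genes can still differ in capture. Each group was a single library, without replicates, so no test was run and no difference has a replicate check. All intervals are exact 95% intervals that cover counting error only. A lower library level can mean fewer cells with the transcript or less of it per cell, and the cell-level values below separate these where depth allows. The libraries shared 32 barcodes, of which 31 were among the primary and 16 among the cultured cells.

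On GRCm38, Col2a1 lies at chr15:97975602-98004695 on the minus strand, and the other genes on plus strands, Col9a1 at chr1:24177610-24252684, Col9a2 at chr4:121039385-121055322, Col9a3 at chr2:180597790-180622189, Col11a1 at chr3:114030540-114220718 and Col11a2 at chr17:34039437-34066685. All 6 are protein-coding genes on separate chromosomes. Col9a3 overlaps Tcfl5 on the opposite strand. The promoters of the type XI pair are shown because the count ratio of these genes, whose chains share a molecule, differed more between the libraries than that of any pair within type IX. The windows are the 250 bases before the RefSeq start of each gene on GRCm38.p6, plus strand, at chr3:114030290-114030539 for Col11a1 and chr17:34038888-34039137 for Col11a2. Capitals mark matches, on either strand, to GGGCGG, the core of a GC box, or TATAA, and a minus-strand GGGCGG reads CCGCCC.
Col11a1: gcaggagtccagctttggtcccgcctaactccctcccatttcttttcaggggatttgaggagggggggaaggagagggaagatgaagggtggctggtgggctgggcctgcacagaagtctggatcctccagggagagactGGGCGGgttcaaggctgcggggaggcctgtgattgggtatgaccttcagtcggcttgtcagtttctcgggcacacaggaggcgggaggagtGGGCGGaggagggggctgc
Col11a2: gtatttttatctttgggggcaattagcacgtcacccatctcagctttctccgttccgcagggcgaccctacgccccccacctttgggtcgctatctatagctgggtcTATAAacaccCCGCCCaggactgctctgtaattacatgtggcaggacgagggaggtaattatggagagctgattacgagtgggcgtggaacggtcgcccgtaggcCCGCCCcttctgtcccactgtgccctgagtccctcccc
The Col11a1 window held GGGCGG in 2 places on the plus strand, from base -110 and from base -19 relative to the start, and no TATAA. Col11a2 held 2 GGGCGG matches on the minus strand, from -133 and from -38, and TATAA on the plus strand from -143. Neither held ACAATG or AACAAT, letters of the kind that SOX factors bind, which can overlap each other. Over 32851 windows of this length GGGCGG was in 32.7%, TATAA in 22.8%, ACAATG in 10.7% and AACAAT in 9.42%. The GC content was 62.4% in the Col11a1 and 57.6% in the Col11a2 window, against a median of 52.4%. Windows were matched for 4 of the 6 genes, Col9a1 and Col9a2 being the others. The Col9a2 window held GGGCGG on each strand and no TATAA. The Col9a1 windows held no GGGCGG, and TATAA only in the more upstream of them. Whether any match bears on the levels was not tested.

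The 6 genes were among the most abundant transcripts of primary CDSCs and were all lower in cultured CDSCs. Together they held 8.06% of primary UMIs and 0.0944% of cultured UMIs. In cultured CDSCs all 6 were at least 4-fold lower. The same held for 522 of the 9115 genes (5.73%) that reached 10 CPM in 1 library or both. The 6 genes' median log2 ratio, cultured over primary, was -10.83, and that of the 9115 genes was 0.37. The size of the difference varied from gene to gene by far more than counting error, from -3.94 for Col11a1 to -12.81 for Col9a2.

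Among the fibril-forming chains, Col2a1 was the most abundant of all genes in the primary library, at 53268 CPM, and ranked 273 in the cultured library, at 490 CPM (487.4 to 492). Its log2 ratio was -6.76 (-6.77 to -6.76), a 109-fold lower level. Col11a1 was at 6846 CPM in the primary library, rank 6, and at 446 CPM (444 to 449) in the cultured library, rank 308. Its log2 ratio of -3.94 (-3.95 to -3.93), 15.3-fold lower, was the smallest change of the 6, and 213 of the 9115 genes (2.34%) had a ratio that low or lower. Col11a2 was at 2966 CPM, rank 35, and at 1.32 CPM (1.20 to 1.45), rank 11775. At a log2 ratio of -11.13 (-11.27 to -11.00) it was 2245-fold lower, so the genes for the paired type XI chains stood far apart in the cultured library although Col11a1 was 2.31-fold above Col11a2 in the primary one.

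The type IX genes were each at 4541 to 7402 CPM in the primary library and at 0.772 to 3.07 CPM in the cultured one. When 25 of the 5338 cells, those with 4 to 6 of the genes, were left out, a choice made after seeing the data, Col9a1 was at 1.75 CPM, Col9a2 at 0.356 CPM, Col9a3 at 1.63 CPM and Col11a2 at 0.773 CPM, each over 1.5 times lower, and the log2 ratio of Col9a2 was -13.93. The 25 cells were picked by these same genes, so a fall was fixed by the choice and only its size is described. Col9a1 was at 4541 CPM (rank 17) and 3.07 CPM (2.89 to 3.27), a log2 ratio of -10.53 (-10.62 to -10.44). Col9a2 was at 5537 CPM (rank 11) and 0.772 CPM (0.681 to 0.873), a log2 ratio of -12.81 (-12.99 to -12.63). Col9a3 was at 7402 CPM (rank 5) and 2.81 CPM (2.63 to 2.998), a log2 ratio of -11.36 (-11.46 to -11.27). The order of the primary levels was Col2a1, Col9a3, Col11a1, Col9a2, Col9a1 and Col11a2, with no overlap of counting intervals. The cultured order was Col2a1, Col11a1, Col9a1, Col9a3, Col11a2 and Col9a2, and the intervals of the neighbours Col9a1 and Col9a3 overlapped.

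**Figure D1:**
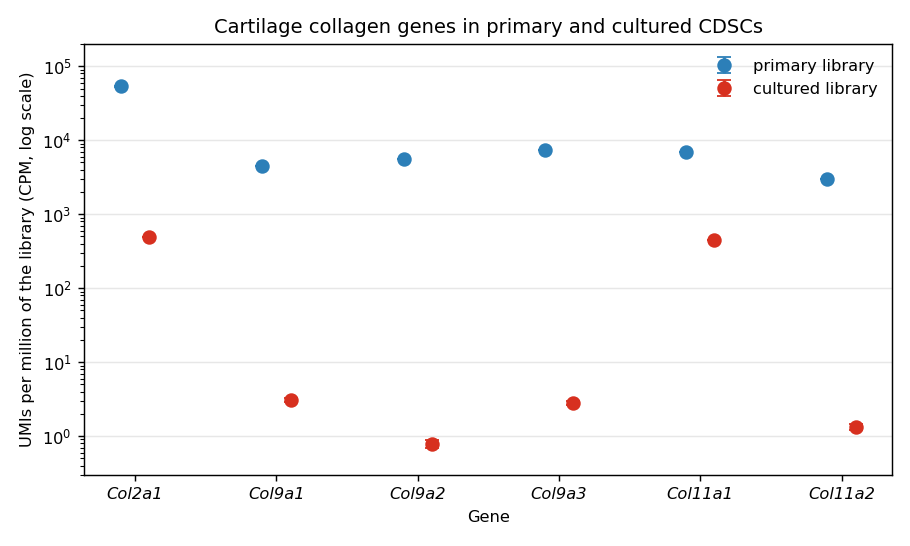
Level of each gene in the primary (blue) and cultured (red) library in CPM (log scale). Each point is 1 library and its bar the exact 95% Poisson interval, often smaller than the point. All 6 red points lie below the blue ones, with Col2a1 and Col11a1 above 400 CPM and the other 4 under 4 CPM in the cultured library.

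The make-up of the group therefore changed. Of the counts of the 6 genes in the primary library, Col2a1 held 66.1%, Col9a3 9.19%, Col11a1 8.50%, Col9a2 6.87%, Col9a1 5.64% and Col11a2 3.68%. Of the cultured counts Col2a1 held 51.9% and Col11a1 47.3%, and the other 4 genes were each under 0.4%. For each Col11a1 count there were 7.78 Col2a1 counts in primary and 1.10 (1.09 to 1.11) in cultured cells. Col11a1 exceeded Col11a2 338-fold (307.6 to 372) in the cultured library, against 2.31-fold in the primary. Within type IX, the Col9a3 to Col9a1 ratio went from 1.63 to 0.915 (0.836 to 1.00), and the Col9a2 to Col9a1 ratio from 1.22 to 0.251 (0.218 to 0.289). Col5a2, which encodes a type V chain, was at 0.00534 counts for each Col11a1 count in the primary and at 2.25 in the cultured library, and Col5a1 went from 0.00790 to 0.309.

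Nearly all primary cells and few cultured cells carried transcripts of the full group. To compare shares of cells at equal depth, each cell was thinned to 5000 UMIs at random, which kept 10959 primary and 4543 cultured cells and left out 787 and 795 shallower ones. At this depth 99.3% of primary cells had a UMI of all 6 genes, and each gene was seen in 99.5% to 99.99% of them. The median primary cell held 258 counts of Col2a1, 37 of Col9a3, 33 of Col11a1, 28 of Col9a2, 22 of Col9a1 and 14 of Col11a2. Among cultured cells Col11a1 was seen in 74.4% of cells (73.1% to 75.7%) and Col2a1 in 62.5% (61.1% to 63.9%), at medians of 2 and 1 counts. Col9a1 was seen in 1.30% (0.990% to 1.67%), Col9a3 in 1.19% (0.894% to 1.55%), Col11a2 in 0.682% (0.464% to 0.967%) and Col9a2 in 0.352% (0.201% to 0.571%). Without thinning, when all UMIs of the 5338 cells were used, these shares were 88.5% for Col11a1, 85.1% for Col2a1, 4.66% for Col9a1, 5.49% for Col9a3, 3.60% for Col11a2 and 2.04% for Col9a2. Of the 4543 thinned cultured cells, 563 had a UMI of none of the genes, 1722 of 1, 2155 of 2, 78 of 3, 14 of 4, 8 of 5 and 3 of all 6.

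A UMI in a droplet need not come from the cell in it, so cells with markers of types that should lack these collagens were examined. The 25 primary cells with at least 3 endothelial markers (median 10273 UMIs) had Col2a1 at 26808 CPM (26211 to 27415), 0.503 times its level in the other cells. The other 5 genes were at 0.464 to 0.530 times. The 6 genes' proportions in the endothelial cells, with Col2a1 at 66.5% and Col11a2 at 3.91% of their counts, were close to those of the whole primary library. Of the 17 endothelial cells deep enough to thin, 17 had a UMI of Col2a1 and of Col9a3, and 11 of Col11a1 (64.7%), 12 of Col9a2, 13 of Col11a2 and 14 of Col9a1. Their counts were uneven from cell to cell, from 1 to 329 for Col2a1 with a median of 113. Primary cells with at least 3 markers of other types differed widely. Col2a1 was at 48918 CPM (0.918 times the other cells) in 11 cells with haematopoietic markers and at 67040 CPM (1.26 times) in 12 with skeletal muscle markers, but at 835 CPM (306 to 1817, from 6 counts) in the 1 cell with mast cell markers, which had 0 counts of Col9a3 and Col11a2. The 12 cells were deep, with a median of 20667.5 UMIs against 10022 in the other cells. Whether the 11 and the 12 cells were truly of those types was not tested. UMIs of these genes were thus also found in primary cells with endothelial markers. A UMI by itself was therefore not read as a transcript made by that cell. Whether these UMIs came from free RNA, from another cell in the droplet or from the cells themselves was not tested. Among cultured cells, 17 with haematopoietic markers (median 35946 UMIs) had Col2a1 at 291 CPM (258 to 327), 0.594 times the other cells, and Col11a1 at 263 CPM (232 to 298), 0.590 times. At equal depth 5 of 13 of them had a Col2a1 UMI and 4 of 13 a Col11a1 UMI. They had 2 counts of Col9a1 and 0 of Col9a2, Col9a3 and Col11a2. In 14 cells with endothelial markers Col2a1 was at 0.746 and Col11a1 at 1.03 times the other cells, and in 47 with skeletal muscle markers these were 1.43 and 0.972 times. Both sets were deep, with medians of 134260 and 104803 UMIs against 56766.5 and 56299 in the other cells. Deep cells reach 3 markers more easily, and whether these were of another type was not tested. The low, widespread Col2a1 and Col11a1 UMIs of the cultured library were therefore partly of a size that cells with haematopoietic markers also showed. The part of free RNA in them was not tested.

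Over primary cells all 6 genes varied by more than counting error, within a range of under 3-fold for most cells. At 5000 UMIs the ratio of variance to mean over cells, which is 1 for pure counting error and grows with the mean, was 35.7 for Col2a1 and 2.18 to 4.74 for the others. Between the 10th and the 90th percentile of cells Col2a1 went from 128 to 372 counts, a 2.91-fold range, and Col11a1 from 21 to 47, a 2.24-fold range. In cultured cells the ratio of variance to mean was 10.5 for Col2a1 and 4.47 for Col11a1. The 95th percentile of cultured cells was at 10 counts of Col2a1 and the highest cell at 83, and for Col11a1 these were 8 and 68. In raw counts the median cultured cell had 10 Col2a1 and 17 Col11a1 UMIs, and 0 of each of the other 4 genes.

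The remaining type IX and Col11a2 transcripts of the cultured library sat in very few cells. In raw counts, 50% of all Col9a2 counts came from 8 cells, of Col9a3 from 19, of Col9a1 from 21 and of Col11a2 from 23 of the 5338 cells. By comparison, 392 cells held 50% of Col2a1 and 781 cells 50% of Col11a1. In the primary library this took 2895 to 3440 of 11746 cells for each gene. The 10 highest cells held 53.7% of Col9a2 counts, 37.3% of Col9a3, 33.5% of Col11a2 and 33.1% of Col9a1 in the cultured library, but 5.09% of Col2a1 and 2.29% of Col11a1. The single highest cultured cells had 61 counts of Col9a1, 41 of Col9a2, 65 of Col9a3 and 31 of Col11a2.

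**Figure D2:**
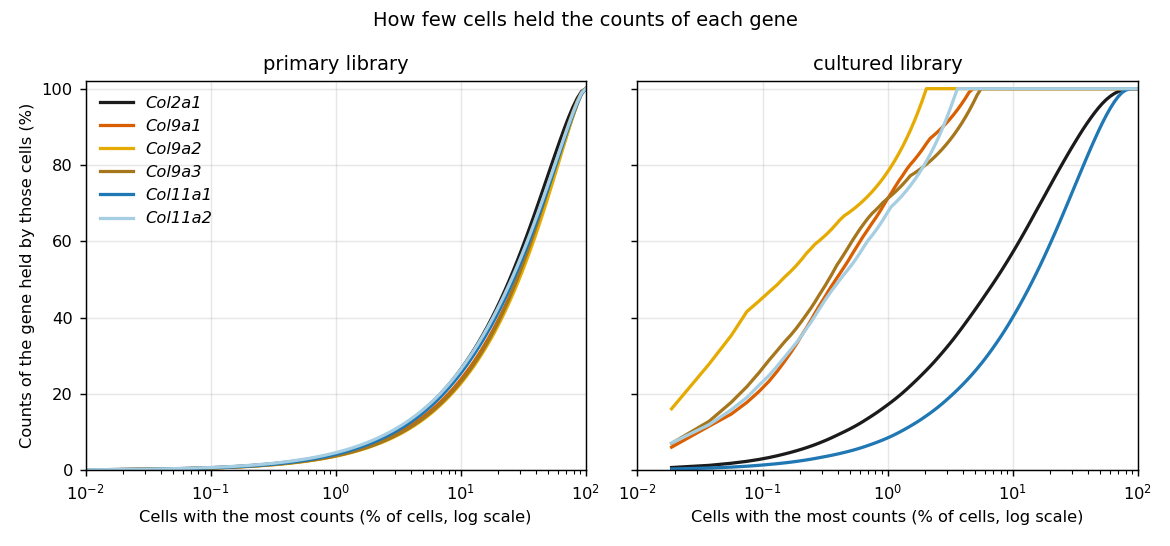
Share of each gene's raw counts (vertical axis, %) held by the cells with the most of them (horizontal axis, % of cells, log scale), in the primary (left) and cultured (right) library. The 6 curves lie on each other in the primary library, while in the cultured library 1% of cells held 67.4% to 78.04% of the type IX and Col11a2 counts, 17.0% of Col2a1 and 8.40% of Col11a1.

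In all, 627 cultured cells (11.7%) had a UMI of Col9a1, Col9a2, Col9a3 or Col11a2, with 2633 counts of these, and the 25 highest of them held 50.6%. Of those 25 cells, 18 had counts of all 6 genes, 24 of Cnmd, 22 of Acan and 25 of Sox9. Over all 5338 cells these shares were 8.19% for Cnmd and 4.25% for Acan, but 74.4% for Sox9. The cell with the most had 53840 UMIs, among them 562 of Col2a1, 31 of Col9a1, 41 of Col9a2, 65 of Col9a3, 197 of Col11a1 and 21 of Col11a2, with 53 of Acan, the core protein of the large cartilage proteoglycan, and 33 of Sox9. The next had 116051 UMIs with 223 of Col2a1, 56 of Col9a1, 16 of Col9a2, 54 of Col9a3, 118 of Col11a1 and 11 of Col11a2. The 25 cells had 0 ZsGreen counts and 0 barcodes shared with the primary library, and they were spread over 7 clusters.

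Genes outside the group differed between cultured cells with many and with few of the 6 genes. Cells were set apart by how many of the 6 had a UMI at 5000 UMIs, so their levels of these 6 are fixed by that choice, and the other genes are described from all their UMIs. The 25 cells with 4 to 6 of the genes had a median of 60071 UMIs and the 4440 cells with 0 to 2 a median of 66530. Of the 14 other cartilage matrix genes, 11 were higher in the 25 cells with intervals apart, 1 was lower and 2 overlapped, against 12.9% higher and 13.4% lower of the 9115 background genes. Matn1 was counted among the 11 on 1 count in each set of cells. Acan was at 198 CPM (176 to 223) in the 25 cells and 1.31 CPM (1.19 to 1.44) in the 4440 cells. Hapln1, which encodes the link protein that holds proteoglycan to hyaluronan, was at 193 CPM (171 to 217) and 5.96 CPM (5.70 to 6.24). Cnmd, for the cartilage protein chondromodulin, was at 282 CPM (255 to 310) and 3.65 CPM (3.44 to 3.86), and Ucma at 90.2 CPM (75.4 to 107) and 0.649 CPM (0.564 to 0.743). The 78 cells with 3 of the genes lay in between for these 4, at 20.9, 42.7, 111 and 27.5 CPM in the same order. The exceptions on that list were Prelp, lower in the 25 cells at 211 CPM (188 to 236) against 350.1 CPM (348 to 352), Fmod, at 53.0 CPM (41.9 to 66.3) and 55.3 CPM (54.5 to 56.1), and Clec3a, with 0 counts in the 25 cells. Sox9 was at 268 CPM (242 to 296) and 79.5 CPM (78.5 to 80.5), and Sox6 at 470 CPM (436 to 507) and 209.6 CPM (208 to 211). Sox5, at 284 CPM (258 to 313) and 264 CPM (262 to 266), had overlapping intervals. Col27a1, a fibrillar collagen gene of cartilage, was at 92.3 CPM (77.3 to 109) and 2.82 CPM (2.64 to 3.01).

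Some matrix and stromal genes went the other way in the same cells. Of 8 fibrillar collagen genes outside the group, 5 were lower in pooled counts with intervals apart and 3 higher. Of the 9115 background genes, 13.4% were lower and 12.9% higher in this way. Cxcl12, a chemokine gene of stromal cells, was at 183 CPM (162 to 207) in the 25 cells and 549.7 CPM (547 to 552) in the 4440 cells. Col5a2 was at 721 CPM (678 to 766) and 1009 CPM (1005 to 1012), and Col1a1 at 526 CPM (489 to 564) and 709 CPM (706 to 712). Besides Col27a1, pooled counts of Col1a2 were higher in the 25 cells, at 448 CPM (415 to 484) and 186 CPM (185 to 188). Those of Col3a1 were also higher, at 307 CPM (279 to 337) and 150.1 CPM (149 to 151). Without thinning, the share of cells with a UMI was not higher, at 64% and 69.5% for Col1a2 and 64% and 81.0% for Col3a1. At equal depth these shares were 32% and 31.1% for Col1a2, and 36% and 37.1% for Col3a1. How the pooled counts were spread over the 25 cells was not tested.

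**Figure D3:**
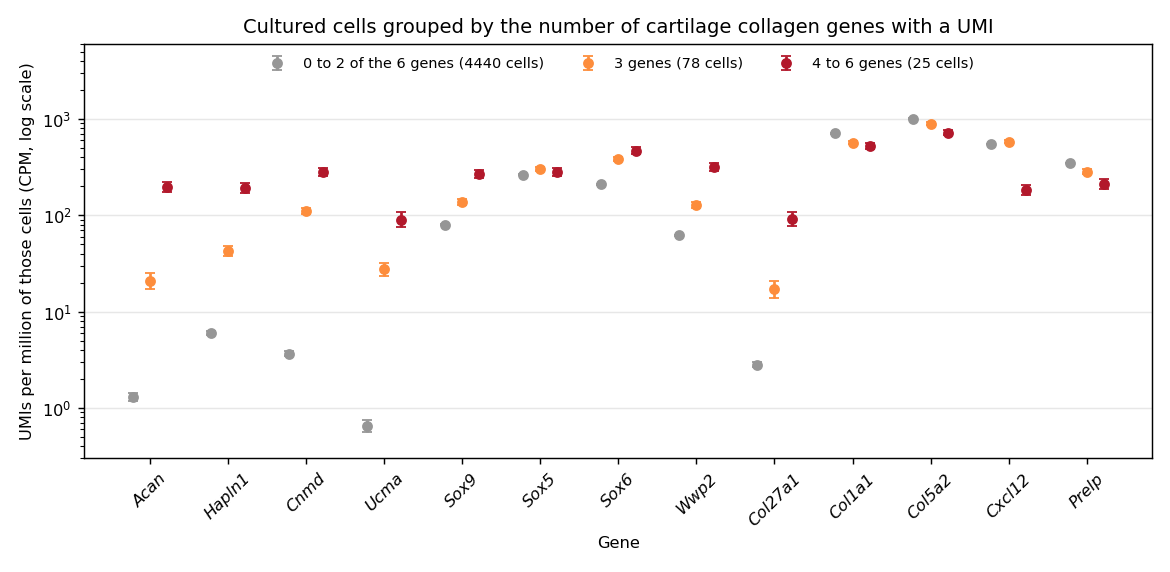
Levels of genes outside the group in cultured cells with a UMI of 0 to 2 (grey), 3 (orange) or 4 to 6 (red) of the 6 genes at 5000 UMIs per cell, in CPM of those cells (log scale), with exact 95% Poisson intervals. Acan, Hapln1, Cnmd, Ucma and Col27a1 are higher in orange than in grey and highest in red, from 1.31 to 198 CPM for Acan, while Sox5 stays at 264 to 301 CPM, and Prelp and Cxcl12 are lowest in the red cells, Cxcl12 at 183 CPM.

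The 6 genes varied together over primary cells, Col11a1 least. Correlations are Pearson r of log1p counts at 5000 UMIs and describe cells of 1 library, which can share free RNA and depth, so they carry no p-value. Over 10959 primary cells the median r of the 15 pairs was 0.53. It was highest for Col2a1 with Col9a3 (0.77), then for Col9a2 with Col9a3 (0.71), Col2a1 with Col9a1 (0.66) and Col9a1 with Col9a3 (0.66). Pairs with Col11a1 ran from 0.35 with Col9a2 to 0.46 with Col9a1, and its r with its partner Col11a2 was 0.37, while Col11a2 reached 0.57 with Col2a1. By rank (Spearman) the median was 0.31, with Col2a1 and Col9a3 highest at 0.58. Over 4543 cultured cells the median Pearson r was 0.22. The highest were Col9a1 with Col11a2 (0.44), Col9a2 with Col9a3 (0.42), Col9a3 with Col11a2 (0.42) and Col9a1 with Col9a3 (0.41), all pairs of genes seen in under 2% of cells, where r rests on at most 59 cells with a UMI of the gene. Col2a1 with Col11a1, the genes seen in most cultured cells, had r = 0.33.

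**Figure D4:**
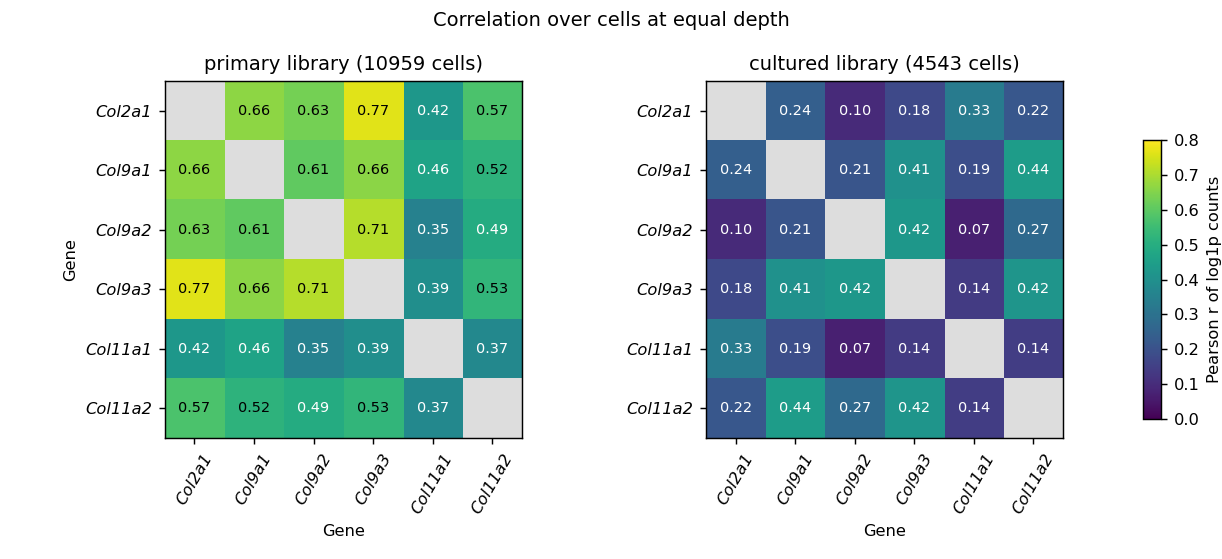
Pearson r of log1p counts at 5000 UMIs per cell for each pair of the 6 genes (rows and columns), in 10959 primary cells (left) and 4543 cultured cells (right). Primary values run from 0.35 to 0.77 with the Col11a1 row lowest, and cultured values from 0.07 to 0.44 with the pairs among Col9a1, Col9a3 and Col11a2 at 0.41 to 0.44.

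Detection of the rare genes in cultured cells overlapped. Of the 31 cultured cells with a Col11a2 UMI at equal depth, 14 (45.2%, 27.3% to 64.0%) had one of Col9a1 and 12 (38.7%, 21.9% to 57.8%) one of Col9a3, against 0.997% and 0.931% of the cells without Col11a2. Of the 59 cells with Col9a1, 57 had Col2a1 and 58 had Col11a1. Conversely, of the 2839 cells with Col2a1, 2.01% (1.52% to 2.59%) had Col9a1 and 1.06% (0.714% to 1.51%) had Col11a2, so that most cells with Col2a1 UMIs had none of the genes of the other chains at this depth apart from Col11a1, which 79.0% of them had.

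Against all genes of at least 50 CPM, the genes most like the mean of the 6 over primary cells were Ucma (r = 0.69), Cnmd (0.60), Mia (0.57), Sparc (0.55) and Acan (0.44), followed by Epyc, Scrg1, Chadl, Snorc and Chad at 0.42 to 0.38. The lowest of the 3024 genes were Postn (-0.59), Col1a1 (-0.58), Col3a1 (-0.51), Clu (-0.40) and Plxdc2 (-0.39). In cultured cells the likeness was weaker. Peg3 led 3474 genes at r = 0.32, then Ogn (0.20), Kirrel3, Ccn2 and Sox6 (0.19 to 0.18), and the lowest was Tmsb4x at -0.21.

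Clusters, found without the 6 genes, were less than 4-fold apart in the primary library. Among those of at least 100 cells the highest over the lowest level was 2.35 for Col11a1, 2.88 for Col2a1 and at most 3.66, for Col11a2. A cluster is named here by genes that lead it, and cluster values are a description with no test. Cluster 4 (1551 cells, led by Aoc2, Acta2 and Grem1) had Col2a1 at 70757 CPM, 1.33 times the library, and the smaller cluster 10 (138 cells, with a higher median mitochondrial share of 3.43%) at 73068 CPM. Cluster 2 (1993 cells, led by Tll1, Clu and Ppargc1a, with the superficial-zone lubricin gene Prg4 among its leaders) had Col2a1 at 30746 CPM, 0.577 times the library, and Col9a3 at 0.659 times, but Col11a1 at 0.889 times and Col9a1 at 0.834 times. Cluster 7 (744 cells, led by Slc35f1, Runx3 and Wnt5b) had Col2a1 at 0.751 times and Col9a2 at 1.10 times. Cluster 8 (263 cells, led by Col1a1, Postn and Thbs4, with 4 fibroblast and 4 mast cell markers) had the 6 genes at 0.456 to 0.584 times, but the cells within it were far apart, with a median of 30.5 Col2a1 counts at 5000 UMIs and a 10th to 90th percentile range of 3.70 to 258.5. The dividing cells of cluster 9 (189 cells, led by Cenpf and Ube2c) were at 0.919 to 1.05 times for all 6. Of the 180 primary cells (1.64%) with under 50 Col2a1 counts at 5000 UMIs, 95 were in cluster 8 or the endothelial cluster 11 and 67 in cluster 2.

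In culture the type IX genes and Col11a2 were highest in 1 cluster, and Col2a1 and Col11a1 each in another, among clusters of at least 100 cells. Col2a1 was highest in cluster 8 (271 cells, led by Nr5a2, Barx1 and Sfrp2), at 1029 CPM (2.10 times the library), where Col9a3 was at 0.327 times. It was lowest among clusters of at least 100 cells in cluster 4 (593 cells, led by Hmcn1 and Il1rl1) at 198 CPM and cluster 9 (185 cells, led by Ptn and Thy1) at 198 CPM. Cluster 9 nevertheless had Col11a1 at 1.40 times the library. Col11a1 was highest among those clusters in cluster 2 (966 cells, led by Sorbs2 and Cyp26b1), at 711 CPM, and lowest at 125 CPM in cluster 3, whose 867 barcodes had a median of 1284 UMIs. Type IX and Col11a2 were highest in cluster 5 (514 cells, led by Mmp13, with Comp and Col14a1 among its leaders), at 9.39 CPM for Col9a1, 5.05 CPM for Col9a2, 8.83 CPM for Col9a3 and 3.66 CPM for Col11a2, while Col2a1 there was at 1.02 times the library. Cluster 5 held 7 of the 25 cells with 4 to 6 of the genes, and the other 18 were in 8 other clusters. Its Col9a2 level rested on 127 counts. Few cells held most counts of type IX and Col11a2, so these cluster levels need not hold for most of the 514 cells. In cluster 12 (16 cells, led by the macrophage genes Pf4 and Lyz2) Col2a1 was at 379 CPM, 0.775 times the library, and Col11a1 at 408 CPM, 0.915 times.

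**Figure D5:**
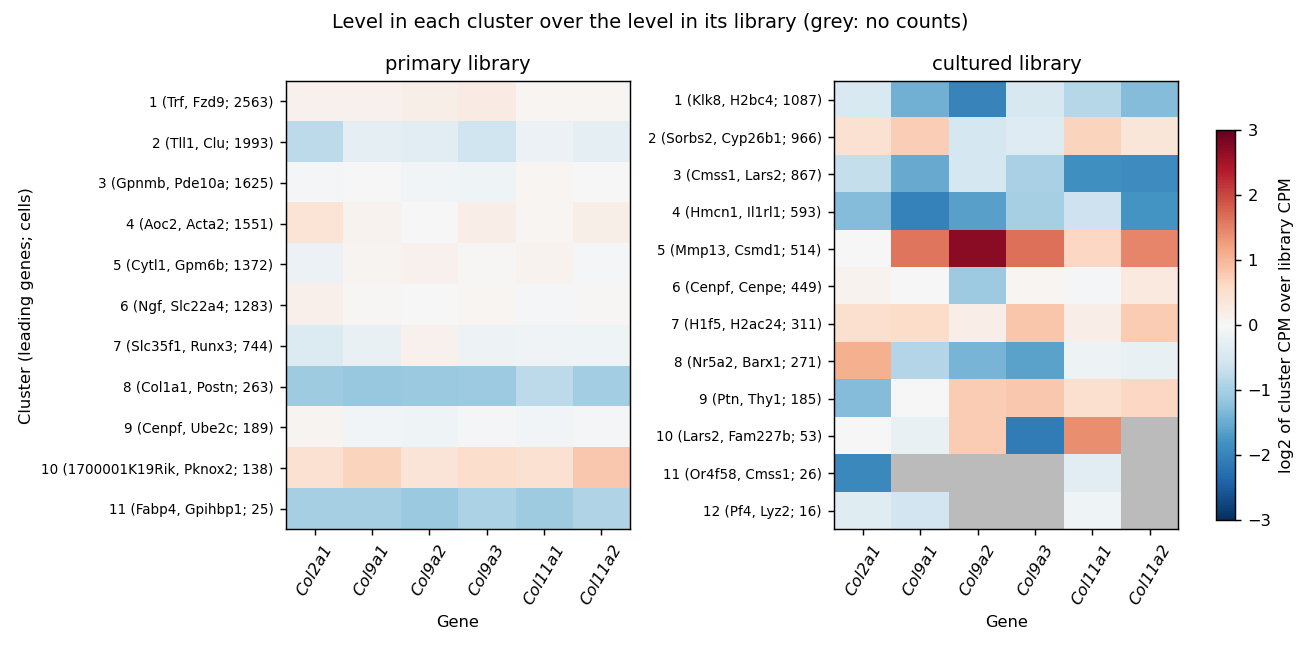
Level of the 6 genes in each cluster over the level in its library (colour, log2 of the CPM ratio, grey where there were no counts), for primary (left) and cultured (right) clusters, named by 2 leading genes with the number of cells. Primary clusters stay close to white except 8 and 11 (blue) and 10 (red), and Col2a1 of cluster 2 is bluer than its Col11a1, whereas cultured cluster 5 is red for type IX and Col11a2 and cultured cluster 8 is red for Col2a1.

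Other genes of cartilage matrix were lower in cultured CDSCs like the 6 collagens. The gene lists used here were drawn up with earlier results of these libraries known, so their counts are descriptions. Of 14 other cartilage matrix genes, 13 were at least 4-fold lower and 0 at least 4-fold higher (background 5.73% and 10.6%), with a median log2 ratio of -9.80. Acan went from 1954 to 2.51 CPM, Cnmd from 3499 to 6.66 CPM and Ucma from 6737 to 1.496 CPM. Prelp, a leucine-rich repeat proteoglycan gene that tissues outside cartilage also express, was the exception, at 227 and 349 CPM. Of 5 chondrogenic regulators 4 reached 10 CPM. Sox9 went from 1308 to 81.2 CPM (log2 ratio -4.01) and Wwp2, which hosts a SOX9-linked microRNA, from 679 to 64.3 CPM (-3.40), both past 4-fold, while Sox5 (-1.20) and Sox6 (-1.79) were not. Of the 6 collagens Col11a1, at -3.94, had the log2 ratio nearest to that of Sox9, and the other 5 had lower ratios than Sox9, beyond the intervals.

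Collagens outside the group differed in both directions. Of the 7 tested fibrillar collagen genes outside the group, Col27a1 was at least 4-fold lower, from 937 to 3.45 CPM, and 2 were at least 4-fold higher, Col1a1 from 149 to 705 CPM and Col5a2 from 36.5 to 1005 CPM. The median log2 ratio of these 7 was 1.35. Of all 38 other collagen genes 21 reached 10 CPM. Of these, 5 were at least 4-fold lower and 6 at least 4-fold higher, with a median of -0.65. These were 23.8% and 28.6% of the 21, above the 5.73% and 10.6% of all genes. The lower 5 included, besides Col27a1, Col25a1 from 133 to 0.660 CPM, Col15a1 from 10.9 to 0.176 CPM and Col16a1 from 339 to 36.6 CPM. Of 15 genes for collagen modification and processing, 2 were at least 4-fold lower, Adamts3, whose protease cleaves procollagen II, from 139 to 6.25 CPM and the prolyl hydroxylase gene P3h1 from 196 to 34.9 CPM. Another 2 were at least 4-fold higher, the cross-linking enzyme gene Lox from 17.3 to 1180 CPM and Pcolce, an enhancer of procollagen cleavage, from 51.2 to 291 CPM. Each 2 were 13.3% of the list, so the higher share was near the 10.6% of all genes. The chaperone gene Serpinh1 was at 1183 and 693 CPM and the prolyl hydroxylase subunit P4hb at 566 and 408 CPM, less than 2-fold apart.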

How the data were processed

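Per the labels and the study's methods, 20000 viable CDSCs were prepared for each run on a droplet platform. Both the MobiDrop platform and the Chromium Controller (10x Genomics) are named in those methods. The authors made the deposited count tables with Cell Ranger 7.0.0, as whole-number UMI counts per gene and barcode without normalisation. The methods name GRCm38, the submitters' processing notes also GRCm39, and the annotation release and treatment of intronic reads were not given in the sources used here. The treatment label gave each library's group. The members and gene lists were chosen with earlier results of these data known.

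Barcodes were kept with at least 500 genes, 1000 UMIs and at most 10% mitochondrial UMIs, which left out 150 of 11896 primary and 5460 of 10798 cultured barcodes (1.26% and 50.6%). Counts were summed per library (CPM), with counts under 3 raised to 3 in ratios. Intervals were exact Poisson, binomial (Clopper-Pearson) or conditional, at 95%. The background was formed by genes that reached 10 CPM in 1 library or both. Cells were thinned without replacement to 5000 UMIs. A cell counted as of another type with at least 3 of its markers. Named genes were the 6, list members of at least 10 CPM, and the 10 highest and 5 lowest in r with the mean of the 6, and further markers and genes leading clusters were named after their values were seen. Leiden clustering (leidenalg 0.10.2, scanpy 1.11.5) used 2000 variable genes without the 6, 10 principal components, 20 neighbours and resolution 0.5. Scrublet called 0 and 1 doublets and had not worked, so doublets were kept and the 1118 and 461 cells of highest score were left out in an alternative only. TMM factors came from edgeR 4.0.16. Ratios, thinning and r were tested on simulated data. Positions are from GENCODE M21 and promoters from RefSeq. No columns of the authors' own comparisons were present.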

Additional observations from a re-analysis of the deposited data

Results flagged for a closer look

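The barcodes left out by the cell filter also carried counts of the 6 genes, above floors of 14.3 CPM (primary) and 0.476 CPM (cultured). In the 150 primary barcodes left out, with a median of 1065.5 UMIs and 12.1% mitochondrial UMIs, Col2a1 was at 51428 CPM, Col9a1 at 4116 CPM, Col9a2 at 6167 CPM, Col9a3 at 7838 CPM, Col11a1 at 7395 CPM and Col11a2 at 4535 CPM. In the 5460 cultured barcodes left out, with a median of 775 UMIs and 0.406% mitochondrial UMIs, Col2a1 was at 388 CPM, Col9a1 at 1.91 CPM, Col9a2 at 0.794 CPM, Col9a3 at 1.91 CPM, Col11a1 at 597 CPM and Col11a2 at 2.54 CPM. The order of Col2a1 and Col11a1 in these cultured barcodes was the reverse of that in the kept cells, where they were at 490 and 446 CPM. Whether these barcodes held cells was not tested.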

How the results depend on the processing

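The count of 6 genes at least 4-fold lower was the same under the 8 alternatives chosen at the start and the 1 added after seeing the data, and no log2 ratio changed sign. The median log2 ratio of the 6, -10.83, moved to -10.42 when each cell weighed the same, to -11.03 with TMM and to -11.63 when the 25 cultured cells with 4 to 6 of the genes were left out, the alternative that was added. Without these 25 cells of 5338 Col9a1 was at 1.75 CPM, Col9a2 at 0.356 CPM, Col9a3 at 1.63 CPM and Col11a2 at 0.773 CPM, each at least 1.5 times lower than with them, while Col2a1 was at 471 CPM and Col11a1 at 438 CPM. A fall was fixed in advance here, because the 25 cells were picked by these same genes. TMM also moved the median of all genes from 0.37 to 0.16, and gave 608 genes at least 4-fold lower and 791 higher in place of 522 and 966. With a minimum of 1 CPM 960 genes were lower and 1615 higher, and with 50 CPM 312 and 442. By Spearman the median r of the 15 pairs was 0.31 in primary and 0.14 in cultured cells. Of 18 ratios of the highest to the lowest cultured cluster, 10 moved by over 1.5 times with the clustering settings, so that the range over clusters is loose for cultured cells, and 0 of 18 did in the primary library. No paired analysis was possible because each group had 1 library and no test was run. Depth limits the rare genes of the cultured library, where 255 to 1014 counts lie behind each value, and differences between animals, preparations and runs could not be estimated.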
